A study of Homo sapiens with 6 samples.

Results

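The accessibility of 9 genes that write, maintain or remove DNA methylation was measured in H9 naive human embryonic stem (nES) cells, an established cell line, after 24 h in tt2iLGö medium with 0 or 4 mM dimethyl-α-ketoglutarate (dm-αKG), a cell-permeable form of α-ketoglutarate (αKG). The genes are TET1, TET2, TET3, TDG, DNMT1, UHRF1, DNMT3A, DNMT3B and DNMT3L. Their members here are the 187 peaks, of 171517 in the deposited count table, that lie inside 1 of these genes or within 20 kb of it in GENCODE 44 on hg38. All cells were grown on mouse feeders, separated from them, plated on laminin in tt2iLGö and then kept for 24 h in the same medium, with dm-αKG in 3 libraries and without it in 3 controls, which the sample labels call DMSO and the methods call 0 mM. All 6 libraries came from H9. The study performed the ATAC-seq once, with 3 replicates per treatment that it describes as biological. The spread between libraries given below is therefore a spread within 1 experiment. ATAC-seq counts the insertions of a transposase into open chromatin, and in a population of cells a smaller share of open cells and a less open site in every cell cannot be told apart.

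DNA methylation at CpG is copied after replication by DNMT1, which UHRF1 guides to half-methylated DNA, and is laid down anew by DNMT3A and DNMT3B with the catalytically inactive cofactor DNMT3L. TET1, TET2 and TET3 oxidize methylated cytosine and use αKG as a co-substrate, and TDG excises oxidized bases so that repair restores unmodified cytosine. Naive human pluripotent cells are known for a genome with little methylation, and αKG supply is known to bear on the activity of the TET enzymes, whereas the assay used here reads the chromatin around the genes, not their enzymes.

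DNMT3A had 35 peaks, TET3 27, TET1 25, DNMT3L 22, TET2 20, UHRF1 19, DNMT3B 17, DNMT1 13 and TDG 9. Of the 187, 33 lay within 1 kb of a transcript start of the gene itself, 28 within 1 kb of a start of another gene, and 126 farther from any start and are called distal here. A peak is named below by its gene and the distance from its centre to the canonical transcript start, negative when upstream. Counts were normalised to library size (TMM), and a peak rose or fell where edgeR's quasi-likelihood test gave an adjusted p below 0.01 over all 171517 peaks.

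The sequences of 6 peaks outside annotated exons are shown, chosen after their values were seen, to set peaks that fell beside peaks that rose. They are the peaks at TET1 −9.32 kb (chr10:68550913-68551115), in introns of TET2 (chr4:105210970-105211169) and TET3 (chr2:74054237-74054443), just inside the first intron of DNMT3L (chr21:44260939-44261141), at the internal start of DNMT3A (chr2:25251473-25251694) and in the first kilobase of DNMT1 (chr19:10194117-10194316). Each is the plus strand of hg38, 5′ to 3′, with capitals at CpG, the dinucleotide on which these enzymes act. The first 3 fell with dm-αKG and the last 3 rose.
TET1 −9.32 kb: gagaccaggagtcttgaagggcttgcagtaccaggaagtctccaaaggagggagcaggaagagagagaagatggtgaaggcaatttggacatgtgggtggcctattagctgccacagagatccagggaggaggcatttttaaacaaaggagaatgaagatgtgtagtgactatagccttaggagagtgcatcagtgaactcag
TET2 +64.2 kb: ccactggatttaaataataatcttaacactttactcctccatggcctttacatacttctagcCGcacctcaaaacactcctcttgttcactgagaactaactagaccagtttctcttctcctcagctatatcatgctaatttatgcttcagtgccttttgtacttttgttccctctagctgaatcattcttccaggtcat
TET3 +69.4 kb: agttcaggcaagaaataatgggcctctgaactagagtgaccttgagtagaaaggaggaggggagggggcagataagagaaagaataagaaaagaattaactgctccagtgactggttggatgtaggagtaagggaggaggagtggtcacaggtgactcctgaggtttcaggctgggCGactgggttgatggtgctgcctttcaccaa
DNMT3L +857 bp: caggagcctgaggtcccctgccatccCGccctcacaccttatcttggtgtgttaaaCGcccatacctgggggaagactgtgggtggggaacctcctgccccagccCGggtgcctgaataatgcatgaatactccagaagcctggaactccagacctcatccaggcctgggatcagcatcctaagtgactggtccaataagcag
DNMT3A +90.3 kb: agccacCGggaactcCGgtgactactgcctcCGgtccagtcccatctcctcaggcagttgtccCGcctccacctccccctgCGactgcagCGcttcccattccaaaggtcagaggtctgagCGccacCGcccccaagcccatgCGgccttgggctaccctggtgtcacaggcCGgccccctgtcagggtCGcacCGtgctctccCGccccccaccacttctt
DNMT1 +737 bp: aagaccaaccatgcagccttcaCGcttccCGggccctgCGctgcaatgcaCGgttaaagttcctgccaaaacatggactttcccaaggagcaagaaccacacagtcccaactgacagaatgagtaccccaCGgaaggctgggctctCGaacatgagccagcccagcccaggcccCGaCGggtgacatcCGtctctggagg
The TET1 sequence holds 0 CpG, those of TET2 and TET3 hold 1 each, that of DNMT3L holds 3, that of DNMT1 holds 9 and that of DNMT3A holds 13. Other peaks outside exons did not keep to this split. A DNMT3A intron peak that fell (chr2:25277335-25277543) holds 20 CpG. A TET1 intron peak that rose (chr10:68599277-68599476) holds 3.

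Of the 187 peaks, 14 fell and 12 rose with dm-αKG, and 161 did not pass. Of the 14, 4 were in the authors' control peak list alone, and of the 12, 5 were in the dm-αKG list alone. Such a peak entered the table only through the treatment where it is higher. Its direction is therefore not independent of that selection. Among all 171517 peaks, 6.54% fell and 3.34% rose, so the share that fell (7.49%) was near the background and the share that rose (6.42%) was above it. With the study's added cut-off of an absolute log2 fold change above 1, applied here to the edgeR fit where the study used DESeq2, 2 peaks were lower, in an intron of TET2 and upstream of UHRF1, against a background of 1.96%, and 1 was higher, in DNMT1, against 0.782%. DESeq2 with both cut-offs left the TET2 peak and no higher one. The median log2 fold change was −0.03 over the 187 peaks and 0.01 over all peaks. The counts depended on the test and on GC content. DESeq2 at the same threshold passed 3 of the lower peaks, at TET1 −9.32 kb, TET2 +64.2 kb and TET3 +69.4 kb, and 4 of the higher ones, at TET3 −1.21 kb, DNMT3A +90.3 kb, DNMT3B +225 bp and DNMT3L +857 bp. An edgeR fit with offsets for the GC content of peaks in each library passed 16 lower and 7 higher. Leaving out 1 library at a time left 5 to 10 lower and 1 to 11 higher peaks, with the fewest in both directions without dm-αKG replicate 1. Peaks at TET1 −9.32 kb and DNMT3L +857 bp passed in each of these 6 fits. Shares of all peaks in the other fits are not given, so the comparison with the background holds for the main edgeR fit only.

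By position, the calls divided as follows. Among the 33 peaks at a gene's own starts, 7 rose and 1 fell, where 4.23% and 2.72% of all peaks within 1 kb of a start did so. The 7 were at TET1 (2 peaks), DNMT3A (2), DNMT1, DNMT3B and DNMT3L, and the 1 that fell was at TET2. Of the 126 distal peaks 13 fell (10.3%) and 4 rose (3.17%), near the 8.69% and 2.84% of all peaks beyond 1 kb of a start. With GC offsets 4 of the 7 start peaks still rose, and neither TET1 peak was among them. Of the 28 peaks at starts of neighbouring genes, 1 rose and 0 fell by edgeR, near the same background. An unadjusted edgeR p was below 0.05 in 6 of the 28, and DESeq2 passed 0, with no share over all peaks given for either. In 40 of the 187 peaks every dm-αKG library was below every control, against 16.9% of all peaks, and in 37 every one was above, against 15.5%. All 14 peaks that fell and all 12 that rose were among these. The lack of overlap noted below is thus no separate support for a call.

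**Figure D1:**
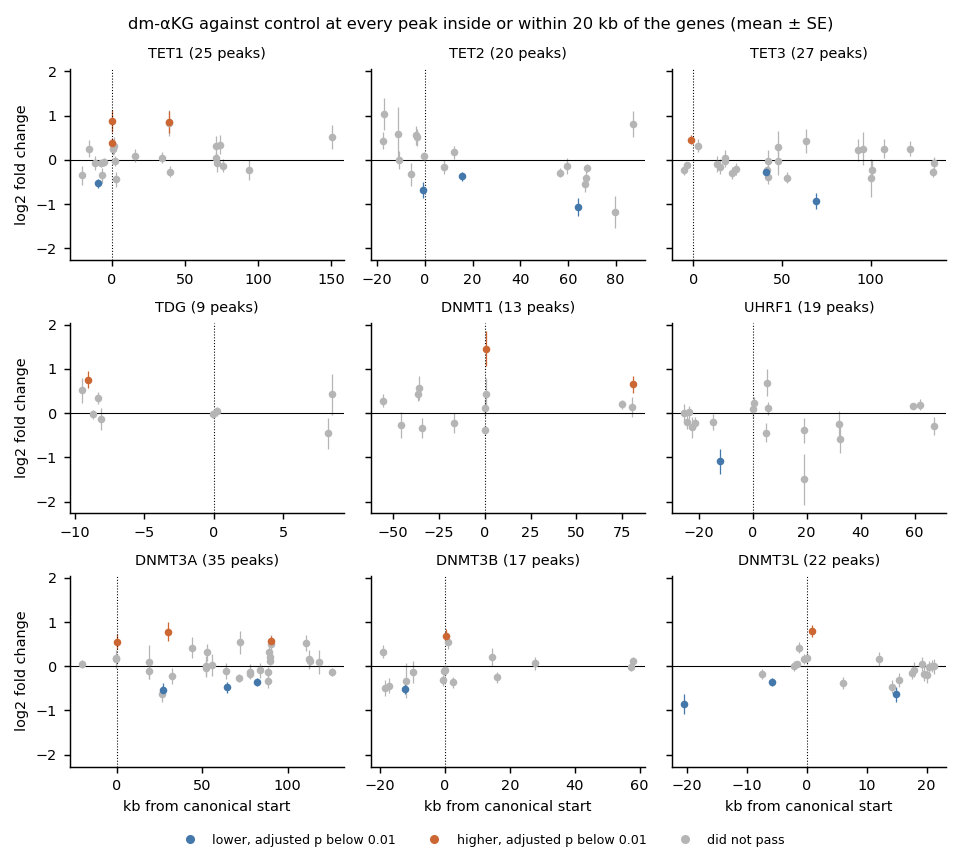
Log2 fold change (dm-αKG against control, ± SE) of each of the 187 peaks by its distance in kb from the canonical start of its gene. Blue points fell (14), orange points rose (12) and grey points did not pass; orange points sit at or near the dotted start line in TET1, DNMT1, DNMT3A, DNMT3B and DNMT3L, and most blue points lie away from it.

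The strongest promoter peak of each gene gave the baseline. Per 200 bp, control levels ran from 552 ± 30.1 (SD, n = 3) normalised counts at the internal TET3 start to 103 ± 11.3 at TET1, around a median of 273 over 16270 protein-coding genes. The order below TET3 was TDG with 466 ± 48.6, DNMT3A with 417 ± 5.57, DNMT3B with 326 ± 21.2, DNMT1 with 238 ± 5.73, DNMT3L with 191 ± 18.9, UHRF1 with 146 ± 15.3 and TET2 with 133 ± 14.8. Neighbours in this order did not overlap between control libraries, except TDG with DNMT3A and UHRF1 with TET2. Thus TET3 lay above 84.6% of protein-coding genes, whereas TET1 lay above 16.7%, TET2 above 22.9% and UHRF1 above 25.4%. The low places of TET1 and TET2 depend on the scaling to 200 bp. Their peaks were 390 and 379 bp wide, and the rest 201 to 216 bp. Unscaled control means were 252.9 at TET2 and 245.6 at DNMT1, and 201.1 at TET1, 200.1 at DNMT3L and 153.0 at UHRF1. Of these 9 peaks only that of TET1 passed the test, against 2.63% lower and 3.74% higher among the strongest promoter peaks of all protein-coding genes.

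**Figure D2:**
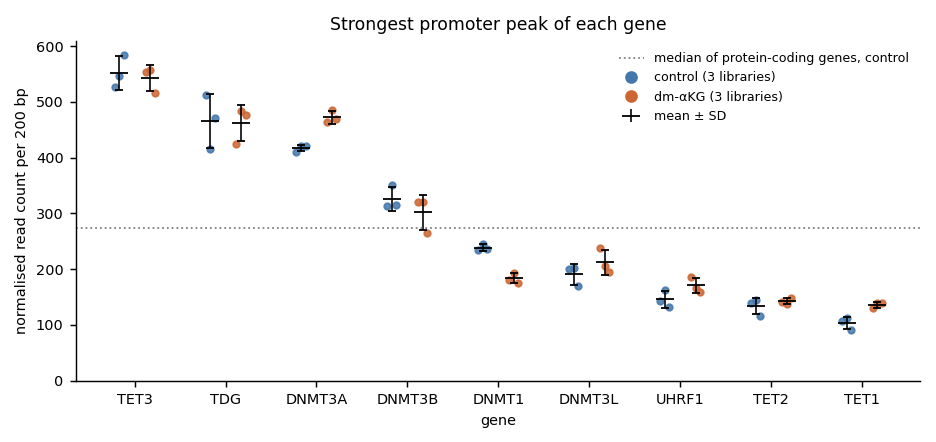
Normalised read count per 200 bp at the strongest promoter peak of each gene, in order of control level, with 3 control (blue) and 3 dm-αKG (orange) libraries, bars for mean ± SD, and a dotted line at the median of protein-coding genes (273). The treatments separate upwards at TET1 and DNMT3A and downwards at DNMT1, and overlap elsewhere.

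TET1, a dioxygenase with a CXXC domain that binds CpG-rich DNA, had 2 peaks at its start, and both rose in the main fit. The peak over its first exon (+83 bp, chr10:68560226-68560615) had 209, 218 and 176 normalised counts in control and 254, 271 and 272 with dm-αKG. All dm-αKG libraries were above all controls, and the peak rose by a log2 fold change of 0.38 (SE 0.11, edgeR adjusted p = 0.0081). A weaker peak on the same exon (+439 bp) had 30.4, 32.1 and 24.3 counts in control and 57.4, 47.5 and 55.4 with dm-αKG, again without overlap, and rose by 0.87 (SE 0.25, edgeR adjusted p = 0.00925). It was in the authors' dm-αKG peak list and not in the control list, so it entered the table through the treatment where it was higher. Both calls were near the threshold. DESeq2 passed neither (adjusted p = 0.0314 and 0.0365). With GC offsets edgeR's adjusted p was 0.0589 and 0.03, and when single libraries were left out it reached 0.0691 and 0.068. Among those fits the +83 bp peak passed only without control replicate 2, and the +439 bp peak passed in none.

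Farther from the TET1 start the directions were mixed. Upstream at −9.32 kb, counts were 310.4, 283 and 345 in control and 214, 216 and 217 with dm-αKG. This CpG-free peak fell by 0.53 (SE 0.10, edgeR adjusted p = 7.22e-05), and the adjusted p stayed at or below 0.00306 with each library left out. An intron peak at +39.0 kb, in the dm-αKG list alone, had 24.1, 32.9 and 44.9 counts in control and 61.7, 62.9 and 55.4 with dm-αKG. It rose by 0.85 (SE 0.24, edgeR adjusted p = 0.00805), but not with DESeq2 (0.0395) or in 4 of 6 fits with a library left out (up to 0.0919). The remaining 21 TET1 peaks did not pass. Summed over all 25 peaks, TET1 had 3393 ± 87.1 (SD, n = 3) counts in control and 3298 ± 24.5 with dm-αKG (log2 fold change −0.04, edgeR adjusted p = 0.385 over 19084 genes).

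TET2 encodes a dioxygenase without a CXXC domain of its own, and its changes were losses. A peak over the first exon of its most upstream transcript (TET2-202, 824 bp upstream of the canonical start, chr4:105145871-105146234) had 132, 118 and 101 counts in control and 90.4, 44.9 and 77.8 with dm-αKG. The treatments did not overlap, and the peak fell by 0.69 (SE 0.18, edgeR adjusted p = 0.00321). Without dm-αKG replicate 2, its lowest library, the adjusted p was above the threshold, as it was without control replicate 1 or 2, with 0.0837 as the highest. The adjacent peak, −322 bp from the canonical start and the strongest promoter peak of the gene, had 263, 275 and 221 counts in control and 267, 260.4 and 280 with dm-αKG. These overlapped (log2 fold change 0.08, edgeR adjusted p = 0.655), so 2 peaks about the starts of the same gene gave different values.

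Inside TET2 the peak at +64.2 kb had 73.3, 104 and 103 counts in control and 34.4, 62.9 and 40.4 with dm-αKG. It was one of the 2 peaks past the stricter call, with a fall of 1.06 on the log2 scale (SE 0.21, edgeR adjusted p = 7.36e-05), and was in the control peak list alone. DESeq2 also passed it (adjusted p = 0.00189), and without dm-αKG replicate 1 edgeR's adjusted p was 0.0103. The intron peak at +15.5 kb held 289.6 ± 21.7 (SD, n = 3) counts in control and 227 ± 25.0 with dm-αKG, a fall of 0.37 (edgeR adjusted p = 0.00738), which GC offsets removed (0.0908). No TET2 peak rose. Summed over 20 peaks, the locus had 2409, 2611 and 2203 counts in control and 2047, 2113 and 2244 with dm-αKG. The lowest control lay below the highest dm-αKG library. The sum fell by 0.19 (SE 0.05, edgeR adjusted p = 0.00286), but not with DESeq2 (0.0105), nor in 4 of the 6 fits that left out 1 library (without control replicate 1 or 2, or dm-αKG replicate 1 or 2), where the adjusted p reached 0.0692.

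TET3 is transcribed from a canonical start (TET3-202, with a coding sequence of 5385 bases) and from an internal start 17803 bp downstream (TET3-201, 5106 coding bases). The peak at the internal start was the strongest promoter peak of the 9 genes, with 529, 548 and 588 counts in control and 557, 559 and 518 with dm-αKG. These overlapped, with a log2 fold change of −0.02 (edgeR adjusted p = 0.896). No peak lay within 1 kb of the canonical start. The nearest, 1.21 kb upstream (chr2:73983509-73983896), had 222, 246 and 196 counts in control and 321, 269 and 326 with dm-αKG, without overlap. It rose by 0.46 (SE 0.11, edgeR adjusted p = 0.000727) and passed with DESeq2 and with GC offsets, but not without control replicate 3 or dm-αKG replicate 1, where the adjusted p was at most 0.0151.

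Within the TET3 introns 2 peaks fell. At +69.4 kb counts were 104, 100.3 and 142 in control and 42.3, 64.1 and 82.3 with dm-αKG, a fall of 0.93 (SE 0.19, edgeR adjusted p = 0.00014). This call was lost without dm-αKG replicate 1 (0.0286). The stronger peak at +41.2 kb fell from 539 ± 34.4 (SD, n = 3) to 443 ± 16.3 counts, by 0.28 (edgeR adjusted p = 0.00793), and lost the call in every fit with 1 library fewer. Over its 27 peaks TET3 had 4541 ± 47.8 counts in control and 4119 ± 34.4 with dm-αKG, a change of −9.32% without overlap between treatments. This was the smallest adjusted p among the 9 sums (log2 fold change −0.14, SE 0.03, edgeR adjusted p = 0.00062). It passed in each fit with a library left out, with 0.00495 as the highest adjusted p.

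TDG, the thymine DNA glycosylase that removes oxidized bases made by TET enzymes, did not pass at its start. The peak across its first exon had 525, 426 and 483 counts in control and 435, 496 and 488 with dm-αKG (log2 fold change −0.02, edgeR adjusted p = 0.886), and the next peak downstream likewise overlapped (0.04, edgeR adjusted p = 0.849). Its single call lay 9.07 kb upstream, 67 bp from a start of UQCC6, an assembly factor of respiratory complex III. There counts rose from 65.3, 44.4 and 46.2 to 84.6, 84.7 and 97.3 (log2 fold change 0.76, SE 0.20, edgeR adjusted p = 0.00352). This peak belongs to TDG by distance alone. The adjusted p was 0.0103 with GC offsets and up to 0.0405 with a library left out.

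DNMT1, the maintenance methyltransferase, had log2 fold changes of opposite sign within 1 kb of its canonical start, of which only a rise passed. Its strongest promoter peak, −94 bp from the canonical start, had 241, 252 and 243 counts in control and 186, 199 and 181 with dm-αKG. The groups were far apart, yet the log2 fold change of −0.38 (SE 0.11) narrowly missed the threshold (edgeR adjusted p = 0.0106), which it passed with GC offsets (0.00155). In the first intron, at +737 bp, counts were 15.2, 5.75 and 9.72 in control and 40.9, 18.0 and 21.0 with dm-αKG. This rise of 1.46 (SE 0.39, edgeR adjusted p = 0.00454) was the largest of the set and rested on the fewest counts among the peaks that passed. It was lost without dm-αKG replicate 1 (0.239), without control replicate 2 or 3, and with DESeq2 (0.047).

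An alternative DNMT1 start 36.3 kb upstream of the canonical one (DNMT1-215) had a peak with 93.0, 95.4 and 117 counts in control and 144, 133 and 124 with dm-αKG, which did not pass (log2 fold change 0.42, edgeR adjusted p = 0.0427). The second DNMT1 peak that rose lay 80.7 kb from the canonical start, beyond the end of the gene and inside P2RY11, a purinergic receptor gene. It had 71.6, 59.2 and 71.7 counts in control and 105, 128 and 79.3 with dm-αKG (log2 fold change 0.65, edgeR adjusted p = 0.0069). The call was lost with GC offsets (0.0255), with DESeq2 (0.0382) and in 5 of 6 fits with a library left out (up to 0.0969). DNMT1 summed over 13 peaks had the highest fold change of the 9 sums, 0.09, from 1115 ± 41.9 to 1187 ± 31.7 counts, which did not pass (edgeR adjusted p = 0.175).

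UHRF1, which recognises half-methylated CpG and recruits DNMT1, did not pass at its starts. The strongest peak there, +552 bp, had 150.3, 170.2 and 138 counts in control and 196, 174 and 168 with dm-αKG. These overlapped, and the log2 fold change of 0.23 did not pass (SE 0.13, edgeR adjusted p = 0.209). The 1 call at the locus was 12.1 kb upstream of the canonical start, inside the arrestin-domain gene ARRDC5, in a weak peak found in the control list alone. It had 51.0, 38.6 and 47.4 counts in control and 22.9, 21.8 and 18.0 with dm-αKG. All treated libraries were lower, and the peak fell by 1.09 (SE 0.29, edgeR adjusted p = 0.00362). The call held in 1 of 6 fits with a library left out (highest adjusted p 0.0361). The sum over 19 peaks was 2350.2 ± 98.3 counts in control and 2327 ± 102 with dm-αKG (log2 fold change −0.01, 95% interval −0.09 to 0.07, edgeR adjusted p = 0.839).

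DNMT3A has a distal start for its long form (DNMT3A-202, 912 codons) and an internal start 89793 bp downstream for a short form without the first part of the protein (DNMT3A-217, 689 codons), which is known as the main form in embryonic stem cells. Both regions were open and both held a peak that rose. At the long-form start (−5 bp, chr2:25341822-25342039) counts were 80.5, 88.8 and 76.5 in control and 123, 129.6 and 111 with dm-αKG. This peak, with 33 CpG in its central 200 bp, rose by 0.56 (SE 0.16, edgeR adjusted p = 0.00983), a call lost with DESeq2 (0.0348) and in 5 of 6 fits with a library left out (up to 0.0495). The stronger peak 673 bp upstream, at another start of the long form, had 444, 454 and 454 counts in control and 501, 523 and 506 with dm-αKG. It did not overlap between treatments but did not pass (log2 fold change 0.18, edgeR adjusted p = 0.109).

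At the internal start the strongest peak (−182 bp of DNMT3A-203) had 385, 491 and 391 counts in control and 470.4, 486 and 416 with dm-αKG, which overlapped (log2 fold change 0.11, edgeR adjusted p = 0.381). The peak 549 bp inside the short transcript had 123, 136 and 160.3 counts in control and 212, 199 and 201 with dm-αKG. It rose by 0.56 (SE 0.13, edgeR adjusted p = 0.000725) and passed with DESeq2 (0.00495) and GC offsets (0.00362), but not without control replicate 1 or dm-αKG replicate 1 (at most 0.018). GC offsets removed the call at the long-form start (0.0742) and not at the short-form start. The log2 fold changes of the 2 start peaks that rose were equal to 2 decimals, and no test of their difference was made.

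Elsewhere in DNMT3A, 3 intron peaks fell and 1 rose, all between the long-form and the internal start. The peak at +82.2 kb, 7.45 kb upstream of the internal start, had 442, 468 and 392 counts in control and 357, 353 and 308 with dm-αKG, a fall of 0.35 (SE 0.09, edgeR adjusted p = 0.00213). Those at +64.5 kb (212 to 153 counts) and +26.8 kb (157 to 107 counts) fell by 0.48 and 0.54 (edgeR adjusted p = 0.00305 and 0.00552). Next to the latter, the peak at +30.0 kb rose from 42.7 ± 4.34 (SD, n = 3) to 74.1 ± 5.87 counts, by 0.78 (edgeR adjusted p = 0.0054). Each of these 4 calls was lost in at least 3 of the 6 fits with a library left out. The sum over 35 peaks had a log2 fold change of −0.05 (edgeR adjusted p = 0.176).

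DNMT3B, the other catalytically active de novo methyltransferase and highly expressed in pluripotent cells, had 5 peaks about its start. The strongest, −262 bp from the start, had 314, 352 and 316 counts in control and 321, 322 and 266 with dm-αKG (log2 fold change −0.10, edgeR adjusted p = 0.506). In the first exon, 225 bp downstream of the start (chr20:32762509-32762712), counts were 79.6, 98.6 and 112 in control and 164, 162 and 133 with dm-αKG. This CpG-dense peak rose by 0.69 (SE 0.15, edgeR adjusted p = 0.000445), also with DESeq2 (0.00423) and GC offsets (0.00525). It did not pass without control replicate 1 or dm-αKG replicate 1 (at most 0.0165). The peak 554 bp upstream of the start lay lower in all dm-αKG libraries but did not pass (log2 fold change −0.32, edgeR adjusted p = 0.0614).

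Upstream of DNMT3B, at −12.3 kb, a distal peak fell from 227, 243 and 199 counts to 153, 129.6 and 198 (log2 fold change −0.50, SE 0.13, edgeR adjusted p = 0.00201). The highest dm-αKG library was just below the lowest control, and the call was lost with DESeq2 (0.0212) and in 4 of 6 fits with a library left out (up to 0.0435). Over 17 peaks the DNMT3B sum was 2965 ± 43.4 (SD, n = 3) counts in control and 2775 ± 45.5 with dm-αKG. The treatments did not overlap, and the change did not pass (log2 fold change −0.09, 95% interval −0.16 to −0.02, edgeR adjusted p = 0.039).

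DNMT3L, a cofactor of the de novo enzymes that is expressed in naive cells and germ cells, held the smallest adjusted p of the 187 peaks. Its peak at +857 bp had 100.2, 164 and 121 counts in control and 245, 218 and 207 with dm-αKG. Every treated library exceeded every control, and the peak rose by 0.80 (SE 0.13, edgeR adjusted p = 2.82e-06), with DESeq2 (0.000172), with GC offsets (1.02e-06) and in each fit with a library left out (at most 0.00105). The peaks at the start itself did not pass, with 138 ± 3.35 (SD, n = 3) against 156 ± 14.7 counts at −5 bp and 200.1 ± 19.8 against 223 ± 23.5 at −493 bp (edgeR adjusted p = 0.361 and 0.347). Among 14539 promoter peaks of other genes, the highest Pearson's r with this peak was 0.992 (ZBTB34), 0.988 (SCUBE2) and 0.988 (MAP3K14). These values compare log2 counts over only 6 libraries, which share the same treatment and depth. The highest of so many values are large by selection, and shared regulation was not tested. Log2 fold changes of the 3 promoter peaks were 0.30, 0.15 and 0.25, against 0.80 here.

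Away from its start DNMT3L lost accessibility at 3 peaks. The peak at −5.84 kb fell from 335, 372 and 429 counts to 285, 285 and 317 (log2 fold change −0.36, edgeR adjusted p = 0.0039). At −20.4 kb, nearer to AIRE than to DNMT3L, counts fell from 52.8, 81.4 and 81.4 to 48.0, 32.1 and 34.4 (−0.85, edgeR adjusted p = 0.00384), and at +15.0 kb from 140.4, 119 and 131 to 97.5, 84.7 and 61.4 (−0.64, edgeR adjusted p = 0.00295). No treated library reached a control at any of them, and each call was lost in 4 of the 6 fits with a library left out. DNMT3L peaks also stood apart in the authors' peak calls, with a median fold enrichment over local background of 3.51 in the control list against 12.3 over all peaks. Their median normalised count, 134, was the highest of the 9 genes and above the 65.3 of all peaks.

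**Figure D3:**
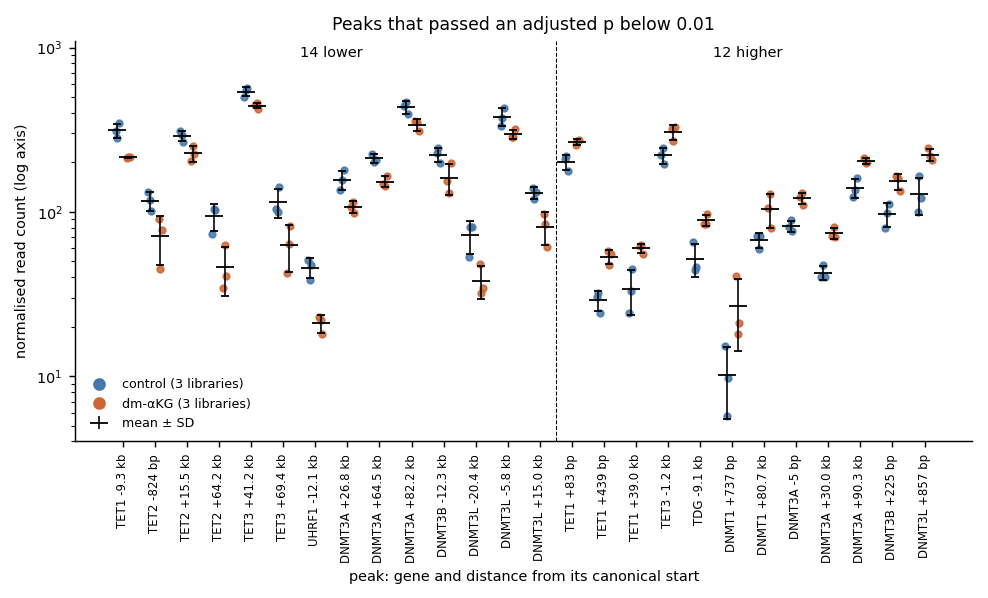
Normalised read count (log axis) in 3 control (blue) and 3 dm-αKG (orange) libraries at the 26 peaks with an adjusted p below 0.01, with mean ± SD, named by gene and distance from the canonical start. Of these, 14 fell (left of the dashed line) and 12 rose (right), and the lowest counts are those of DNMT1 +737 bp.

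Summed over whole loci, TET3 and TET2 fell with dm-αKG, and the other 7 genes did not pass. The background among protein-coding loci was 11.4% lower and 8.43% higher. For DNMT3L the log2 fold change was −0.07 with overlapping libraries (edgeR adjusted p = 0.11), and for TDG it was 0.04 (edgeR adjusted p = 0.571). Neighbouring genes share peaks in these sums. When only peaks inside the gene were summed, TET2 (−0.28, edgeR adjusted p = 2.74e-06) and TET3 (−0.18, 0.000175) passed again, and TET1, TDG and DNMT1 changed sign without passing.

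**Figure D4:**
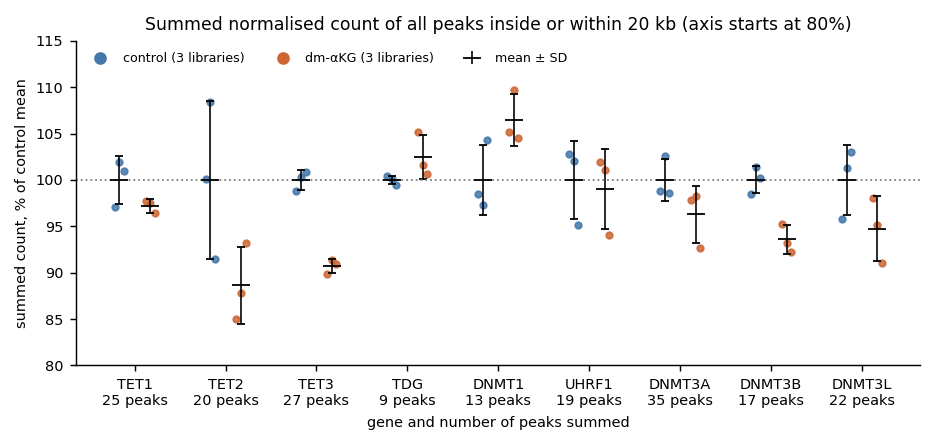
Summed normalised count over all peaks of each gene as a percentage of the control mean, with 3 control (blue) and 3 dm-αKG (orange) libraries and mean ± SD. The vertical axis starts at 80%. TET3 lies below control in every dm-αKG library (mean change −9.32%), TET2 is lower with wide spread in control, and UHRF1 overlaps fully.

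Sequence composition was compared between the peaks that rose and those that fell. CpG density is given as observed over expected in the central 200 bp, which is near 1 where CpG has not been depleted. Its median was 0.61 in the 12 peaks that rose and 0.145 in the 14 that fell, against 0.345 over the 187 and 0.339 over all peaks. Over the whole table the median was 0.392 in the peaks that rose and 0.197 in those that fell. CpG-rich peaks (ratio above 0.6 and GC above 50%) numbered 41 of 187, and 6 of these rose and 2 fell, against 4.04% and 1.21% of all CpG-rich peaks. Of the other 146, 6 rose and 12 fell, against 3.08% and 8.54% of all other peaks, so the lower share (8.22%) was near the background. The same tilt was present in the whole table, where CpG-rich peaks had a median log2 fold change of 0.10 and other peaks −0.05, which became 0.022 and −0.0027 with GC offsets. Across peaks, CpG density and log2 fold change had a Pearson's r of 0.221 over the 187 and 0.194 over all 171517, which share libraries and base composition. The part of GC content in the calls was not tested beyond the offsets, with which 13 of the 14 lower and 7 of the 12 higher peaks still passed.

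**Figure D5:**
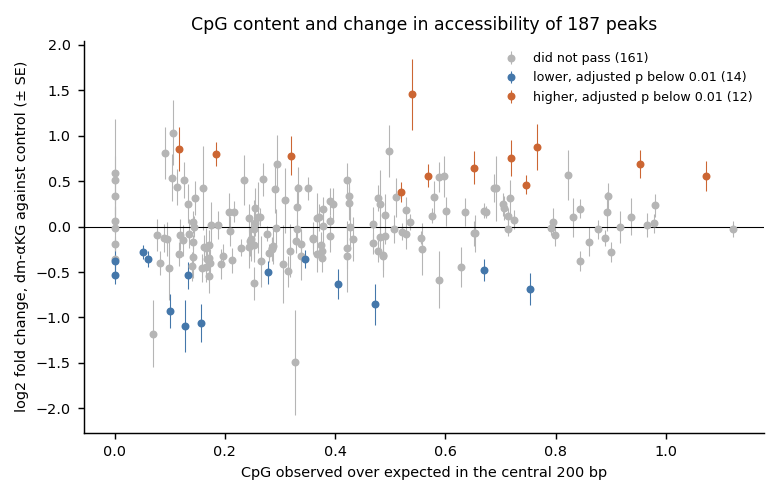
Log2 fold change (± SE) of the 187 peaks against CpG observed over expected in their central 200 bp. Peaks that fell (blue, 14) gather at low CpG with a median of 0.145, and peaks that rose (orange, 12) spread across the range with a median of 0.61.

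Short motifs were searched on both strands in the same windows. The KLF and SP motif GGGCGG, which itself contains a CpG, occurred in 29.4% of the 187 peaks and 26.3% of all peaks, and in 7 of the 12 that rose and 1 of the 14 that fell. Over the whole table, 33.0% of the peaks that rose and 5.07% of those that fell were CpG-rich. TEAD (GGAATG) occurred in 15.5% and 14.6%, the NRF2 letters TGACNNNGC in 6.42% and 9.56%, AP-1 (TGANTCA) in 3.74% and 6.33%, and the OCT octamer ATGCAAAT in 7 of the 187 (3.74%) and 3910 of all peaks. Of the 26 peaks that passed, AP-1 letters were found in that of TET2 at +64.2 kb, which fell, and NRF2 letters in 5, among them both TET1 start peaks. In the remaining 4, CACGTG occurred in 4.81% of the 187 and 3.69% of all peaks, SOX (ACAATGG) in 1.07% and 2.70%, FOX (TGTTTAC) in 0.535% and 2.86%, and TGACGTCA in 0 members and 0.469% of all peaks. The KLF and SP letters can overlap CpG-dense sequence by construction, and the shares are descriptive. No motif share among all peaks that rose or fell is given, so the motif counts among the 26 cannot be read as particular to these genes.

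Membership in the authors' peak lists followed the counts. Of the 187 peaks, 150 were in both lists (80.2%, against 77.4% of all peaks), 13 in the control list alone (6.95%, against 11.7%) and 24 in the dm-αKG list alone (12.8%, against 10.9%). All 5 dm-αKG-only peaks that passed rose, at TET1 (2), DNMT1 (2) and DNMT3A, and all 4 control-only peaks that passed fell, at TET2, UHRF1 and DNMT3L (2). Lists and counts come from the same reads, so this is a description.

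Of 39 other genes of the methylation pathway, 38 had a promoter peak, of which 2 rose and 1 fell. These counts are near the background of 3.74% higher and 2.63% lower among the strongest promoter peaks of all protein-coding genes. ZFP57, a zinc finger protein that protects methylation at imprinted genes, fell from 186, 187 and 198 counts to 142, 127 and 74.8 (log2 fold change −0.68, SE 0.14, edgeR adjusted p = 0.000211). Its partner TRIM28, a corepressor, rose from 707, 732 and 684 counts to 867, 871 and 849 (0.28, SE 0.07, edgeR adjusted p = 0.00123). POLB, the polymerase of base excision repair downstream of TDG, rose from 205, 185 and 250.2 counts to 274, 339.9 and 271 (0.48, SE 0.11, edgeR adjusted p = 0.000799). ZFP57 passed with each library left out, TRIM28 lost the call without control replicate 3 and with GC offsets (0.0125), and POLB lost it without control or dm-αKG replicate 2 and with DESeq2 (0.0101). By role, 0 of 7 maintenance partners, 0 of 8 readers of methylated CpG, 1 of 12 repair genes, 0 of 4 TET partners, 2 of 4 protection genes with a peak and 0 of 3 methyl donor genes passed. The 2 protection genes, ZFP57 and TRIM28, went in opposite directions, and groups this small cannot be set against the background shares. DPPA3 had no promoter peak in the table.

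The libraries held 13025674 to 26828622 counts in peaks, of which 0.135% to 0.144% lay in the 187 peaks. Log2 counts correlated at 0.942 to 0.966 within a treatment and 0.911 to 0.928 between treatments. As a check of the labelled cell type, 5 of 6 naive markers had a promoter peak, with a median control level of 269.9 normalised counts per 200 bp, against 128 over 6 primed markers and 240 over 5 of 6 trophectoderm markers. KLF17 fell and SUSD2 rose among the naive markers, DUSP6 fell among the primed ones, and none of the trophectoderm or shared pluripotency promoters passed. The libraries of DUSP6 overlapped, and its call (edgeR adjusted p = 0.00928) was lost with DESeq2 (0.0534), with GC offsets (0.0416) and in 4 of 6 fits with a library left out. The KLF17 call was lost in 2 of these 6 fits. Open promoters of all classes were present, so promoter levels alone do not mark the cell type.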

How the data were processed

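ATAC-seq libraries of H9 nES cells, 3 grown for 24 h with dm-αKG (4 mM) and 3 controls, were analysed. The authors trimmed reads, aligned them to hg38 with Bowtie 2, filtered them with the ENCODE pipeline, called MACS2 peaks per replicate and kept reproducible ones. They deposited 1 peak list per treatment, with fold enrichment as a ratio and q-values as −log10 (not used), and raw counts of reads in the merged 200 bp peaks, made with bedtools 2.28.0.

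Counts were tested here with edgeR 4.0.16 in R 4.3.3 (TMM, quasi-likelihood, treatment as the only term, all peaks, Benjamini-Hochberg adjustment). Locus sums were tested likewise over 19084 protein-coding genes. SE was taken from the F statistic of each fit. No exact permutation test of 3 against 3 can reach a p below 0.1, and p-values come from the fits. DESeq2 1.42.0, which gave no adjusted p for 6652 peaks, was an alternative. Positions come from GENCODE 44. The members and the lists of other pathway genes and markers were chosen with earlier results of these data known. Named were each gene's strongest promoter peak, peaks at alternative starts, peaks that passed, and pathway genes that passed.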

Additional observations from a re-analysis of the deposited data

How the results depend on the processing

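For member peaks, RLE scaling, loess offsets and total counts left both counts within 1.5 times of 14 lower and 12 higher. DESeq2 passed 3 and 4, and offsets for GC content, chosen after seeing the data, passed 16 and 7. An adjusted p below 0.05 gave 27 and 19. The counts under these other settings have no share over all peaks beside them. Peaks inside the gene, or within 5 kb of it, gave 9 lower in each case. Leaving out 1 library gave 5 to 10 lower and 1 to 11 higher peaks. Of peaks past the fold threshold, 2 lower and 1 higher, DESeq2 left 1 and 0, GC offsets left 1 lower, gene bodies or 5 kb left 1 lower, at least 10 counts left 0 higher, an adjusted p below 0.05 gave 2 higher, and leaving out a library gave 0 to 2 lower and 0 to 1 higher.

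The locus sum of TET2 did not pass with DESeq2 (log2 fold change −0.18) and ranged from −0.24 to −0.12 without 1 library. Summing peaks inside the gene turned TET1 to 0.050, TDG to −0.055 and DNMT1 to −0.046, and UHRF1 ranged from −0.044 to 0.021 without 1 library, none of which passed. Among other pathway promoters GC offsets gave 2 lower and 1 higher, DESeq2 gave 1 higher, and leaving out a library gave 1 to 3 higher. Strongest promoter peaks that did not pass changed sign in places, TET2 with GC offsets (−0.057) and without 1 library (−0.00015 to 0.15), TET3 without 1 library (−0.048 to 0.020) and TDG likewise (−0.10 to 0.060). The causes were not tested, except that fits with a library left out have fewer samples.

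No pairing of the samples by the replicate numbers in the labels was seen, though this check cannot exclude it, because counting noise can hide it. Deviations of same-numbered libraries correlated at −0.0157 to 0.0134, and 1 of 3 control libraries correlated best with its own number. With the replicate block 13 peaks were lower and 10 higher. The effect of depth was not tested. The peak at DNMT1 +737 bp had the fewest counts among those that passed, with 10.2 ± 4.75 (SD, n = 3) in control.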
